A study of Drosophila melanogaster with 3 samples.

Results

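The genes described here encode the proteins of the mitochondrial ribosome of Drosophila melanogaster. They were taken as every protein-coding gene whose symbol is mRpL or mRpS followed by a number, which gave 73 of the 13945 protein-coding genes on the 6 chromosome arms of the Ensembl dm6 annotation. Of these 73 members, 47 belong to the large subunit (mRpL) and 26 to the small subunit (mRpS). Binding of the transcription factor Deaf1 was measured by ChIP-seq, in which DNA that co-precipitates with a protein is sequenced. The labels describe 1 group of 3 biological replicates: whole embryos of both sexes, 0 to 24 h old, from a transgenic line that stably expresses Deaf1 with GFP fused to its C terminus, precipitated with an antibody against GFP. There was no other genotype, treatment or stage, so no comparison between conditions could be made. Whether the tagged Deaf1 replaced the endogenous protein is not given in the sources used here. Whole embryos mix all cell types and stages of embryogenesis, so a strong peak in a few cells and a weaker one in many cannot be told apart.

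The mitochondrial ribosome translates the few proteins that the mitochondrial genome still encodes, nearly all of them subunits of the respiratory chain and ATP synthase. Its RNAs are transcribed inside the organelle, whereas all of its proteins are encoded in the nucleus, made in the cytoplasm and imported. Deaf1 binds DNA through a SAND domain, and TTCG is the core of the sequence it is known to recognise. Many fly genes of basic metabolism lie head to head with a neighbour, so that a short stretch of DNA serves as the promoter of both.

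A member was called bound when a summit of the authors' reproducible set lay within 500 bp of any of its transcription start sites (TSSs). That set holds 8667 summits and was derived from the replicates with the irreproducible discovery rate (IDR), which retains peaks that rank alike in different replicates. The replicate and pooled lists behind it hold 30000 peaks each, down to weak calls. Signal is the peak caller's own value for each peak, deposited by the authors. In each replicate it was divided by the median of that replicate's list and is called relative signal below. Replicate medians were 54.4, 52.7 and 41.1, and read depth is unknown. Nothing in the labels besides their numbering tells how the replicates differ, so every SD covers only the spread between these 3 samples.

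Deaf1 summits lay at 24 of the 73 members (32.9%), against 27.8% of all protein-coding genes (3878 of 13945). This order depends on the assignment of summits. Within 250 bp of a TSS 17 members were bound (23.3%, against 24.7% of all genes), and with each summit given to the gene of the nearest TSS alone 9 were bound (12.3%, against 24.0%). A promoter was called divergent where the TSS of another protein-coding gene lay 0 to 500 bp upstream on the opposite strand, and single otherwise. By this definition 53 members had a divergent promoter and 20 a single one. Of the 53 divergent members 23 were bound (43.4%), against 33.2% of all divergent genes. Of the 20 single-promoter members 1 was bound (5.0%), against 25.8% of all single-promoter genes. With this definition the divergent members thus stood above their background and the single-promoter members below theirs. With each summit given to the gene of the nearest TSS alone, 8 of the 53 divergent members were bound. No share over all divergent genes is given for that setting. The split depends on the gap allowed: with divergence limited to 250 bp, 8 of 25 divergent members and 16 of 48 single-promoter members were bound, and these shares were nearly equal. Of all genes, 240 of 835 were bound at gaps up to 100 bp (28.7%) and 352 of 1145 at gaps over 100 and up to 250 bp (30.7%). The 8 of 25 divergent members were near both shares. Among all genes that then count as single, 676 of 1835 were bound at gaps over 250 and up to 500 bp (36.8%). At the others it was 2610 of 10130 (25.8%). Most of these genes are among the others, so the 16 of 48 single-promoter members stood above this background. Their place below it with the 500 bp definition was thus not kept at 250 bp. These shares are descriptions: genes are not replicates, and no test was made over them.

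With the 500 bp definition, most bound members were also divergent in each replicate's own 8667 strongest peaks. These gave 22, 27 and 22 bound members in replicates 1, 2 and 3, of which 21, 25 and 21 were divergent and 1, 2 and 1 had a single promoter. All genes had 27.2%, 28.9% and 27.2% bound in the same lists. No share over all divergent or all single-promoter genes is given for these lists, so the classes cannot be set against their backgrounds there. The reproducible set was derived from the same replicates, so these counts are not separate support. A total of 20 members (27.4%) were bound in all 3 lists, against 23.4% of all genes. The excess of members over all genes was larger in replicate 2 than in the other replicates.

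Both the number of TSSs and the spacing of promoters bear on these shares. Most members, 67 of 73, have a single annotated TSS and so a single window in which a summit can fall. Among genes with 1 TSS, 21 of 67 members were bound (31.3%), against 19.7% of all such genes. With 1 TSS and a divergent promoter it was 20 of 48 members (41.7%), against 26.3% of all genes of that kind. With 1 TSS and a single promoter it was 1 of 19 members (5.26%), against 17.4%. The share also varied with the distance between the facing TSSs. With a gap of at most 100 bp, 5 of 18 members were bound (27.8%), against 28.7% of all genes with such a gap. With a gap over 250 and up to 500 bp it was 15 of 28 members (53.6%), against 36.8%. Between these classes, 3 of 7 members were bound (42.9%), against 30.7%. The share of members was thus near that of all genes at the narrowest gaps and above it at the wider ones.

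**Figure D1:**
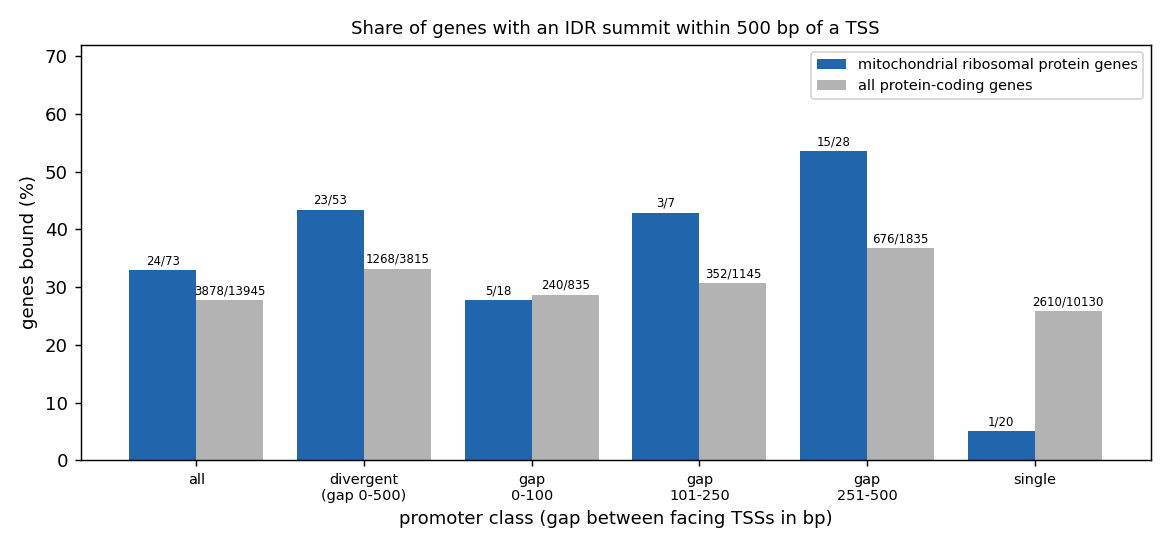
Percentage of genes bound (vertical axis, from 0) for the mitochondrial ribosomal protein genes (blue) and all protein-coding genes (grey) by promoter class, where gap is the distance in bp between facing TSSs, with the count of bound genes over genes above each bar. Blue stands above grey for divergent promoters (23 of 53) and below it for single promoters (1 of 20) with gaps up to 500 bp counted as divergent. With gaps up to 250 bp counted as divergent 8 of 25 divergent and 16 of 48 single-promoter members were bound, and grey is drawn by gap class only. Grey stands at 28.7%, 30.7% and 36.8% in the gap classes from narrow to wide, and at 25.8% for single promoters.

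Sequences at the summits of some bound members are shown for the range of base composition and of Deaf1 words among them. They were chosen after their values were seen and represent no class. The following were read from the RefSeq copy of the dm6 assembly, 5′ to 3′ on the member's strand, and hold the summit with 50 bp on either side, or the part of that window outside annotated transcripts. Capitals mark the Deaf1 core, TTCG, or its complement CGAA. The first group holds members of high signal, of which all but mRpS6 have a summit in AT-rich DNA (at most 30 G or C bases in the window) and mRpL24 has a TTCG word.
mRpS10 (chr3R:15229486-15229586, plus strand): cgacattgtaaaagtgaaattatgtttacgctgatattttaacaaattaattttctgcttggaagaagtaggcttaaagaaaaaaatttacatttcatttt
mRpS23 (chr2L:13835415-13835515, minus strand): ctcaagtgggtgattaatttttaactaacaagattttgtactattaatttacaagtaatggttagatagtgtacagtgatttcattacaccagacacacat
mRpL24 (chr2L:4945414-4945514, minus strand): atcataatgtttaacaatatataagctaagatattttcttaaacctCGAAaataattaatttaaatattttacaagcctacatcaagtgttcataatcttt
mRpS2 (chr2L:4850494-4850594, minus strand): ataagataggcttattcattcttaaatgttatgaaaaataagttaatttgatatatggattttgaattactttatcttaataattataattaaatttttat
mRpL20 (chr3L:13018108-13018208, minus strand): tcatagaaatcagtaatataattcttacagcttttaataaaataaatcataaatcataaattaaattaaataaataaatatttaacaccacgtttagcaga
mRpS6 (chr3L:4364103-4364194, plus strand): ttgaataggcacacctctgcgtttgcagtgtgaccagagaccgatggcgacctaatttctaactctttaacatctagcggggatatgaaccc

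The second group holds members of lower signal, of which mRpS7, mRpS22 and mRpS21 are AT-rich with no TTCG and the others have a TTCG near the summit. For mRpL51 only the 25 bp around its TTCGG, the longer form of the core, are shown, with TTCGG in capitals.
mRpS7 (chr2L:10386473-10386573, plus strand): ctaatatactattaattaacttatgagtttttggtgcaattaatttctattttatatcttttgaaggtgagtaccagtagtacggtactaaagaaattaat
mRpS22 (chr3R:27916680-27916780, plus strand): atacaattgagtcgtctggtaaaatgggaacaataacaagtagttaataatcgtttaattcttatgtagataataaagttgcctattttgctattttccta
mRpS21 (chr3R:13381893-13381993, minus strand): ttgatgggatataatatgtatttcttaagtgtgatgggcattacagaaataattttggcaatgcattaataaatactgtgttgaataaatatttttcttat
mRpL1 (chr3R:8300979-8301035, plus strand): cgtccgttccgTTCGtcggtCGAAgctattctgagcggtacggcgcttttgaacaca
mRpL21 (chr3L:19255207-19255307, minus strand): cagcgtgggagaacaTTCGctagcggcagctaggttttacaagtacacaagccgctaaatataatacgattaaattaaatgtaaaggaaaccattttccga
mRpL33 (chrX:4322591-4322625, minus strand): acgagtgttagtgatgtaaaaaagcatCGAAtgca
mRpL51 (chr2L:8517463-8517487, minus strand): tatataaaatTTCGGatacttttta

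The highest signal among the members was at mRpS10, whose bacterial counterpart sits in the head of the small subunit. Its relative signal was 23.8, 32.6 and 19.9 in replicates 1, 2 and 3, or 25.4 ± 6.49 (SD, n = 3). The summit lay 129 bp upstream of mRpS10 and 128 bp from the TSS of Art3, an arginine methyltransferase gene 257 bp away. It stood midway between the pair, in the first sequence above, where neither strand holds a TTCG. By signal it ranked 571 of the 8667 summits of the reproducible set.

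mRpS23, a small-subunit protein with no bacterial counterpart, was next. Its relative signal was 21.05, 21.6 and 16.5 in the 3 replicates (mean 19.7 ± 2.78, SD, n = 3). The summit was 393 bp from mRpS23 and 99 bp from CenG1A, which encodes a GTPase-activating protein for ARF and begins 492 bp away. The summit thus belonged by distance to the neighbour.

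mRpL41 was the only bound member with a single promoter. Its relative signal was 16.8, 23.9 and 15.1 in replicates 1, 2 and 3 (mean 18.6 ± 4.68, SD, n = 3), and the summit lay 137 bp upstream of its TSS. The nearest TSS of another protein-coding gene was that of CG8079, 625 bp from the summit. Its peak is therefore the clearest case of one nearest to a member alone. It depends on the definition, since counting facing TSSs up to 1000 bp apart makes mRpL41 divergent too and leaves 0 bound members at single promoters.

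mRpL23 and mRpL32 followed. mRpL23, whose bacterial counterpart lines the exit of the peptide tunnel, had relative signals of 9.96, 15.7 and 10.5 in replicates 1, 2 and 3 (mean 12.1 ± 3.19, SD, n = 3). Its summit was one of few inside a member, 71 bp downstream of its nearest TSS in the 5′ untranslated region. The partner CG9004 starts 121 bp from the summit and 24 bp from another of the 3 TSSs of mRpL23. mRpL32 had 9.22, 10.8 and 10.2 in the same replicates (mean 10.1 ± 0.778, SD, n = 3), and its summit lay 352 bp upstream, beyond the TSS of qless and inside its 5′ untranslated region. qless encodes a prenyl diphosphate synthase used to make coenzyme Q. The 3 replicates differed least for mRpL32 among these members.

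mRpL24, mRpS2 and mRpS6 completed the 8 highest. mRpL24, a counterpart of an early assembly protein of the bacterial large subunit, had relative signals of 7.00, 12.1 and 8.09 (mean 9.05 ± 2.66, SD, n = 3). Its summit was 103 bp upstream, and its partner betaggt-I, which encodes the β subunit of geranylgeranyl transferase I, begins 218 bp away. mRpS2 had 5.87, 7.65 and 5.90 (mean 6.47 ± 1.02, SD, n = 3), with the summit 125 bp upstream in the 222 bp that separate it from Mon1, an endosomal trafficking gene. mRpS6 had 6.09, 7.74 and 5.56 (mean 6.46 ± 1.13, SD, n = 3), with the stronger of 2 summits 406 bp upstream of mRpS6 and 42 bp from Cip4, an F-BAR protein gene. Neighbours in this order of means differed by less than the larger of their SDs, except for mRpL41 and mRpL23. These differed by more than either SD, with mRpL41 higher in each replicate, although the lowest value of mRpL41 was below the highest of mRpL23.

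**Figure D2:**
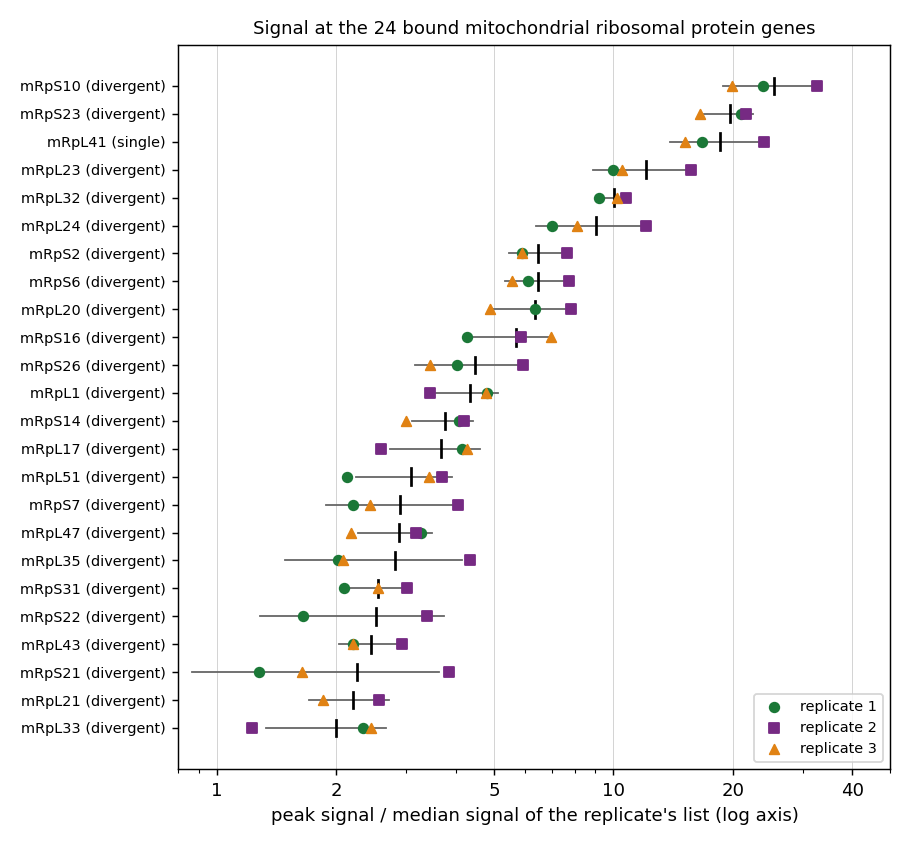
Relative signal (log axis) at each bound member, with 1 symbol per replicate, a vertical tick at the mean and a horizontal line of ± 1 SD; mRpS22 and mRpL21 have 2 replicates. mRpS10, mRpS23 and mRpL41 stand above 15 in every replicate, and most members are highest in replicate 2 (purple squares).

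The other 16 bound members had mean relative signals of 2.00 to 6.36. In the large subunit these were mRpL20, mRpL1, mRpL17, mRpL51, mRpL47, mRpL35, mRpL43, mRpL21 and mRpL33. In the small subunit they were mRpS16, mRpS26, mRpS14, mRpS7, mRpS31, mRpS22 and mRpS21. The peaks of 22 of the 24 bound members were present in all 3 replicates at the position of the summit. mRpL21 had none in replicate 1 and mRpS22 none in replicate 3. Of the 22 with all 3 values, 17 were highest in replicate 2, against 53.3% of all bound genes with 3 values (1977 of 3708).

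The median signal of the bound members was below that of all bound genes. Their median relative signal was 4.14, 4.27 and 4.26 in replicates 1, 2 and 3 (mean 4.23 ± 0.0733, SD, n = 3). All bound genes had 4.96, 5.57 and 4.81 (mean 5.11 ± 0.4003), and the order was the same in each replicate. The divergent members had 4.11, 4.196 and 3.85 (mean 4.05 ± 0.179), and all bound divergent genes had 3.69, 4.72 and 3.64 (mean 4.02 ± 0.611). Members at divergent promoters therefore had signals within the replicate spread of other divergent promoters. In the pooled list, 10 of the 24 members were above the median of all bound genes. The log2 ratio of the divergent members' median to the signal of mRpL41, the 1 bound single-promoter member, was -2.03, -2.51 and -1.97 in the 3 replicates. An exact two-sided sign-flip permutation test over the replicates gave p = 0.25, the smallest p that 3 replicates allow. Since one side of this ratio is a single gene, it describes mRpL41 and not a class. With divergence limited to 250 bp, which leaves 16 bound single-promoter members, the log2 ratio was 0.17.

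The edge of the reproducible set ran through the members without a gap in signal. The bound members of lowest pooled signal were mRpL21 at 276.4, mRpL33 at 307.1 and mRpS21 at 334.9, where the lowest signal of the whole reproducible set was 256.1. The first 3 members outside it were mRpL19 at 232.2, mRpL18 at 193.2 and mRpL13 at 171.0. For comparison, the median of the pooled list was 128.2. In replicates 1, 2 and 3 the relative signals were 1.28, 3.84 and 1.64 at mRpS21 and 2.33, 1.23 and 2.45 at mRpL33, while mRpL21 had 2.57 and 1.85 in replicates 2 and 3. Just outside the set, mRpL19 had 1.11, 2.08 and 1.84 in replicates 1, 2 and 3, mRpL18 had 1.42, 1.45 and 1.42, and mRpL13 had 1.36, 1.19 and 1.14. The replicate values of members just inside and just outside the threshold overlapped. Their call of bound or unbound is thus a matter of the threshold.

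**Figure D3:**
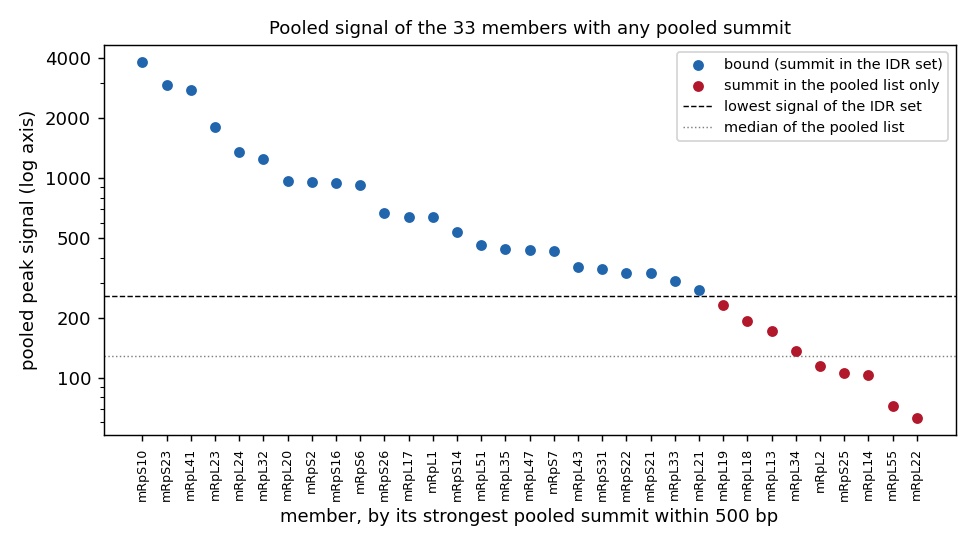
Pooled peak signal (log axis) of the strongest summit within 500 bp for each of the 33 members that have one in the pooled list, with bound members in blue and others in red; the dashed line is the lowest signal of the reproducible set and the dotted line the median of the pooled list. The values descend without a step across the dashed line, between mRpL21 at 276.4 and mRpL19 at 232.2.

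Of the 49 unbound members, 9 had a weaker summit in the pooled list within 500 bp and 4 had a reproducible summit over 500 and up to 1000 bp from a TSS. For 34 of the 73 members no list held any summit within 500 bp. A few unbound members had a peak in some replicates only. mRpL16, a protein near the peptidyl transferase centre in bacteria and the partner of trr, had a relative signal of 3.70 in replicate 1 and 4.51 in replicate 2, with none in replicate 3, and its nearest pooled summit was 8052 bp away. mRpL53 had 1.70 in replicate 2 and 3.03 in replicate 3. mRpS24 had 2.42 in replicate 2 alone. These values lie in the range of bound members, so being unbound covers both genes with no peak and genes whose peak appeared in only some of the lists.

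By subunit, 11 of 26 small-subunit members were bound (42.3%) and 13 of 47 large-subunit members (27.7%), where the share over all genes was 27.8%. At divergent promoters it was 11 of 19 in the small subunit (57.9%) and 12 of 34 in the large one (35.3%), against 33.2% of all divergent genes. The large-subunit share was thus near its background there. At single promoters it was 0 of 7 and 1 of 13, against 25.8% of all single-promoter genes. In the replicates' own lists 9, 12 and 9 small-subunit members and 13, 15 and 13 large-subunit members were bound, so the order of the shares was the same in each. Families whose number is shared with bacterial ribosomes (up to L36 and S21) had 16 of 42 members bound (38.1%), and higher numbers, mostly proteins found in mitochondria alone, had 8 of 31 (25.8%). The number is an approximate guide, since mRpL47 and mRpS24 are counterparts of bacterial L29 and S3. By chromosome arm the bound share of members was 41.7% on 2L, 25% on 2R, 41.2% on 3L, 33.3% on 3R and 18.2% on X, with 11 to 21 members on each of these arms. Of all genes, 26.3% were bound on 2L, 28.5% on 2R, 28.8% on 3L and 26.5% on 3R. The X, with 2 of 11, was the arm of lowest share among members, where 30.2% of all X-linked genes were bound.

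Where the summits lay shows how far they can be assigned to the members. They were upstream of the member for 22 of 24 (91.7%), against 72.5% of all bound genes and 79.8% of bound divergent genes. The median position was -185.5 bp, negative values being upstream of the gene's TSS, against -67 bp in all bound genes and -112 bp in bound divergent genes. The member's own TSS was the nearest protein-coding TSS for only 7 of 24 (29.2%), against 84.9% of all bound genes. Among divergent genes alone it was 6 of 23 members (26.1%), against 58.1% of all bound divergent genes. In the replicates' own lists the count was 6 of 22, 9 of 27 and 7 of 22. Most summits near a mitochondrial ribosomal protein gene were therefore nearer to the gene next door.

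For the 23 bound divergent members, the summit lay between the facing TSSs in 15, inside the partner in 6 and inside the member in 2. The median distance was 196 bp to the member's TSS and 99 bp to the partner's, and the partner was nearer in 17. The gap between the TSSs had a median of 281 bp (21 to 492 bp), and that of the 30 unbound divergent members had a median of 153 bp. By annotation, 16 of the 24 summits of bound members were intergenic, 7 lay in a 5′ untranslated region and 1, at mRpL17, in a coding exon. The 5′ untranslated region was the member's own only at mRpL23. At mRpL32, mRpS16, mRpS14, mRpL51, mRpL35 and mRpL33 it was that of the neighbour.

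**Figure D4:**
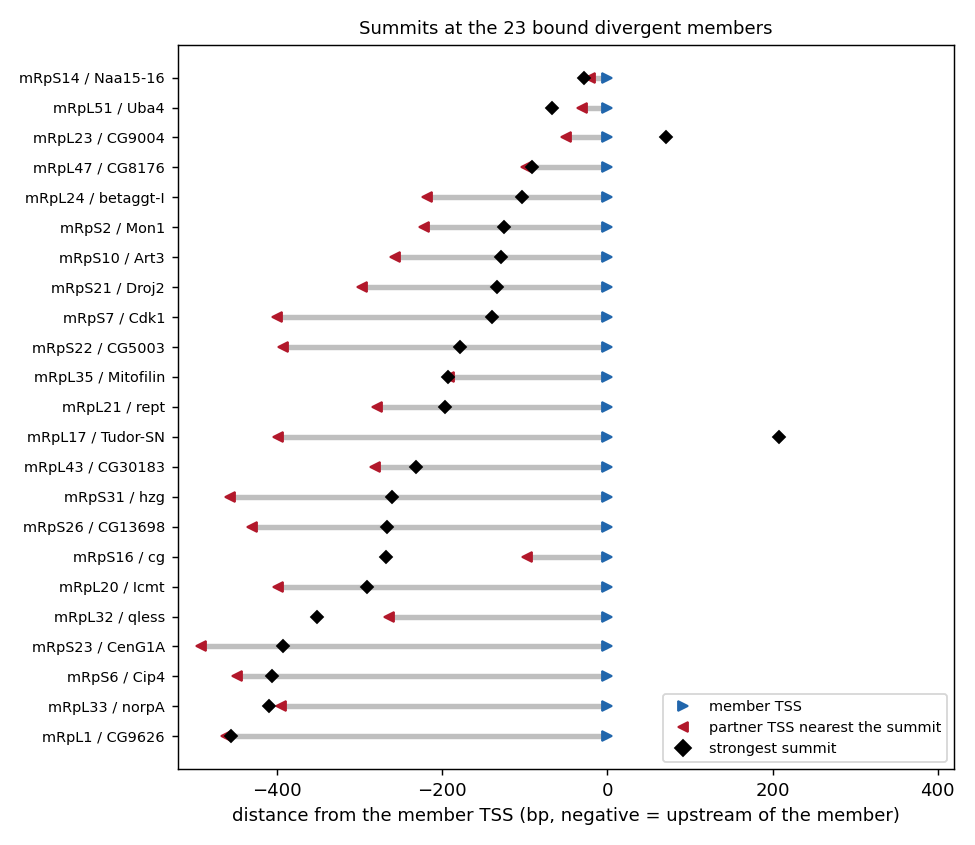
Position of the strongest summit (black diamonds) relative to the member TSS nearest to it (blue, at 0) and the partner TSS (red) for the 23 bound divergent members, in bp with negative values upstream of the member. Grey bars join the blue and red marks, which at mRpL23 is wider than the gap because another of its TSSs is closer to the partner. In 15 rows the diamond lies on the bar, and in 17 it lies nearer to the red mark than to the blue one.

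The partner was itself bound in 22 of 23 pairs, since 1 summit counts for every gene with a TSS within 500 bp. The exception was mRpL17, whose summit was 208 bp inside the gene and 607 bp from the TSS of Tudor-SN, an RNA-binding nuclease gene. The partners had varied roles. Mitofilin, the partner of mRpL35, encodes an organiser of mitochondrial cristae, and its TSS lay 1 bp from the summit. Like that of qless, its product works in mitochondria. betaggt-I and Icmt, the partner of mRpL20, both act in protein prenylation: the first in attaching the lipid, and Icmt in methylating proteins that carry it. Other partners were Cdk1 (mRpS7), the mitotic kinase, rept (mRpL21), an AAA ATPase of chromatin complexes, cg (mRpS16), a zinc finger protein, Uba4 (mRpL51), an activating enzyme for a ubiquitin-like modifier, Naa15-16 (mRpS14), a subunit of an N-terminal acetyltransferase, Droj2 (mRpS21), a DnaJ-like chaperone, and norpA (mRpL33), the phospholipase C of phototransduction. mRpL47 faced both CG8176 and Kdm3, a histone demethylase gene, each 99 bp away. The remaining partners were CG13698 (mRpS26), CG9626 (mRpL1), hzg (mRpS31), CG5003 (mRpS22) and CG30183 (mRpL43).

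In 5 of the 30 unbound divergent members the partner was bound while the member was not. These were mRpL34 with Dg, mRpL2 with FoxK, mRpL22 with if, mRpL53 with AGO1 and mRpS18B with Kua. In such pairs the summit lay within 500 bp of a TSS of the partner and farther than that from every TSS of the member.

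Few members carried the Deaf1 words at the summit. TTCGG, on either strand, was within 50 bp of the summit at 2 of 24 bound members (8.33%), mRpL41 and mRpL51, against 30% of all bound genes and 18.5% of bound divergent genes. In an equal window 300 bp to the right it was present at 4 of 24 members (16.7%), against 16.8% of all bound genes and 17.1% of bound divergent genes. TTCG, the shorter core held within TTCGG, was present at 9 of 24 members (37.5%), against 68.2% of all bound genes and 56.3% of bound divergent genes. In the flanking window TTCG was present at 12 of 24 members (50%), against 57.5% of all bound genes and 61% of bound divergent genes. Neither word was more frequent at the members' summits than beside them. For TTCG this is not particular to the members, since in bound divergent genes it was also less frequent at the summit than beside it. TTCGG was slightly more frequent at the summit in bound divergent genes. In all bound genes both words were more frequent at the summit. Within 100 bp of the summit the count for TTCGG was 9 of 24 members. No share over all bound genes is given for this wider window, so the count cannot be called high or low. No match says only that the letters are not in the window.

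Within 250 bp upstream to 50 bp downstream of the TSS, 10 of 24 bound members (41.7%) and 10 of 49 unbound members (20.4%) had TTCGG, against 45.6% of all bound genes and 38.7% of all protein-coding genes. For TATCGAT, the core of the DNA replication-related element of proliferation genes, it was 6 of 24 bound members and 18 of 49 unbound ones. Over all members this was 24 of 73 (32.9%), against 18.2% of all protein-coding genes and 31.8% of divergent genes. The share of members with this word was thus near that of divergent genes in general. At the summits themselves TATCGAT was found at 0 of 24 members, against 4.49% of all bound genes.

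The base composition of the summits varied widely among the members, with a G and C content of 14.9% (mRpS2) to 59.4% (mRpS14). At most 30 of the bases within 50 bp of the summit were G or C at 11 of 24 members (45.8%), against 34.5% of bound divergent genes and 19.0% of all bound genes. In the replicates' own lists the count was 10 of 22, 16 of 27 and 8 of 22. No share over bound divergent genes is given for these lists, and the count in replicate 3 was near the 34.5% of the reproducible set. The lowest G and C content was at mRpS2 (14.9%), mRpL20 (17.8%), mRpL23 (19.8%), mRpL24 (20.8%) and mRpL41 (21.8%). mRpS10 had 24.8% and mRpS23 29.7%, while mRpL32 (45.5%) and mRpS6 (47.5%), also among the 9 strongest, were not AT-rich. Members of lower signal could be AT-rich as well, with 24.8% at mRpS7 and mRpS21 and 27.7% at mRpS22. A TTCG word has less room in such windows, and its part in the low word counts was not tested.

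The mean G and C content was 35.4% at the members' summits, 41.0% centred 100 bp before and 35.4% centred 100 bp after it along the gene's strand. Bound divergent genes had 38.2% at the summit, and all bound genes had 44.5%. At the midpoint of the gap between facing TSSs, the median was 31.7% in the 23 bound divergent members, 34.2% in the 30 unbound ones and 31.7% in all divergent genes. It was 30.7% in all bound divergent genes. At most 30 bases were G or C there in 11 of the 23 bound members (47.8%) and 11 of the 30 unbound ones (36.7%), against 45.0% of all divergent genes. Bound divergent genes had 48.2%, so the bound members were near them. The 16 intergenic summits had a median of 28.7% and the 8 in exons one of 42.6%.

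**Figure D5:**
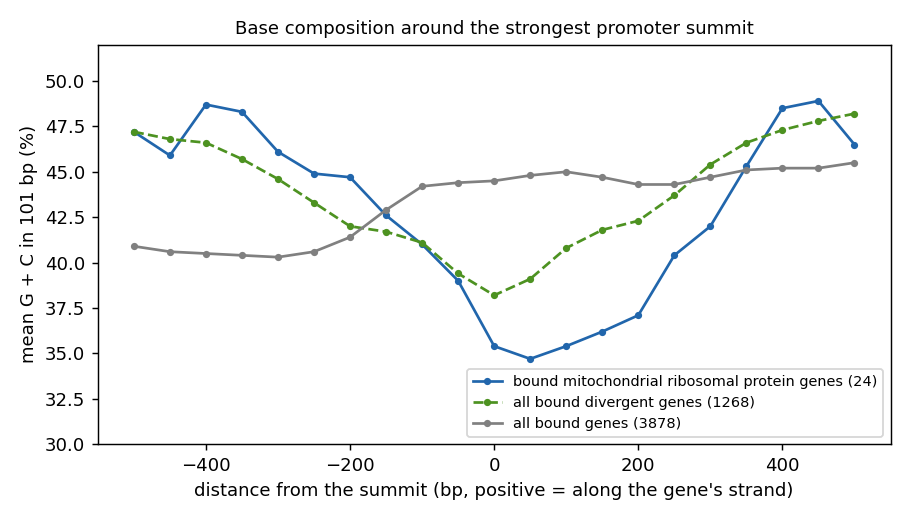
Mean G and C content in windows of 50 bp on either side of each position (vertical axis, from 30%) against distance from the strongest promoter summit in bp, positive along the gene's strand, for bound members (blue), all bound divergent genes (green, dashed) and all bound genes (grey). Members reach 35.4% at the summit and stay low on the side of the member TSS, while all bound genes stand at 44.5% at the summit.

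Other genes of mitochondrial translation had a lower bound share than the ribosomal protein genes. From a list of 44 names, 36 matched the annotation, and 4 of these 36 were bound (11.1%), where the share over all genes was 27.8%. At divergent promoters 3 of 19 were bound, against 33.2% of all divergent genes, and at single promoters 1 of 17, against 25.8% of all single-promoter genes. The bound genes were those of the aminoacyl-tRNA synthetases ArgRS-m (8.64 ± 1.496, SD, n = 3) and AspRS-m (5.62 ± 1.06), of rswl (3.35 ± 1.39) and of the methyltransferase mtTFB1 (2.98 ± 0.428), in relative signal. None of the 8 translation factors matched was bound, against 2 of 15 synthetases and 2 of 11 genes of transcription and RNA handling. tko and bonsai, which encode the mitochondrial S12 and S15 proteins under other names, were not bound. tko has a single promoter, and bonsai faces Cdk9 at 43 bp. The difference between the lists was not tested.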

How the data were processed

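Per the labels, the lists are on dm6. Calling was done per replicate and on pooled alignments with 1 control alignment, per the file headers, and IDR then gave the reproducible set. Which aligner, caller and IDR cut-off were used is not given in the sources used here. Signal is the authors' own deposited value for each peak and ranks peaks only inside its list. The −log10 q-values that the authors deposited were not used. A summit is the deposited peak start plus the deposited offset in bp, a score of position.

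Genes came from Ensembl release 115 (19607 TSSs) and sequence from the RefSeq copy of the same assembly. Where several summits lay within 500 bp of a gene, the strongest was used. For a replicate, the value is that of its nearest summit in a peak covering this position. Calling was checked on simulated summits. Python 3.11.15, numpy 2.4.6, pandas 2.3.3, scipy 1.17.1 and matplotlib 3.10.9 were used.

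The members and lists were chosen with earlier results of these data known. Every bound member is named. Replicate values are given for the 8 bound members of highest mean relative signal, the 3 bound of lowest and the 3 unbound of highest pooled signal. The 8 names of the translation list without a match were left out, the GTPases and chaperones of ribosome assembly among them.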

Additional observations from a re-analysis of the deposited data

How the results depend on the processing

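With each summit given to the gene of the nearest TSS alone, 9 members were bound (12.3%, against 24.0% of all genes). These were 8 of 53 divergent members, or by subunit 4 of 47 in the large and 5 of 26 in the small one. Of the 36 translation genes 2 were bound. With a window of 250 bp 17 members were bound (23.3%, against 24.7% of all genes), so that in both settings the members fell below all genes. Among the top 4333 summits the counts were 14 members (19.2%, against 18.0% of all genes), near the share over all genes. These were 13 of 53 divergent members, or by subunit 7 of 47 large and 7 of 26 small, with 2 of 36 translation genes. No share over all divergent genes is given for the nearest-TSS or top-summit setting, so the divergent members cannot be set against their background there. Of all genes, 28.7% were bound at gaps up to 100 bp, 30.7% over 100 and up to 250 bp, 36.8% over 250 and up to 500 bp and 25.8% without such a gap. With divergence limited to 250 bp, 25 members were divergent, 8 of them bound, and 16 of 48 single-promoter members were bound. With that limit the divergent members were near their background and the single-promoter members above theirs. The log2 ratio of divergent to single members was then 0.17, with the sign turned. With divergence up to 1000 bp 0 single-promoter members were bound, and the ratio had no value. TTCGG was within 100 bp of 9 summits, a window for which no share over all bound genes is given. By replicate 3 alone TTCGG was within 50 bp of 1 summit, and in the reproducible set TTCG was within 50 bp of 9. Replicate 2 alone gave a median position of -162 bp, 2 single-promoter members and 7 translation genes. The median relative signal was 4.38 with the highest peak of each replicate interval and 4.99 in the pooled list. Leaving out each replicate in turn gave 20 to 21 members bound, and none of the results recomputed this way moved past 1.5 times its value. The alternatives for AT-rich summits were chosen after seeing the data. No paired analysis was possible because there was 1 group. Without read depth, a missing peak cannot be told apart from a shallow library.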
